A study of Mus musculus with 24 samples.

Results

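Major urinary proteins (MUPs) and their relative Obp2a are lipocalins, small carriers that bind hydrophobic molecules. The 6 genes described here are Mup3, Mup9, Mup20, Mup21, the pseudogene Mup-ps20 and Obp2a, of 41388 genes in the deposited tables. They were picked by their gene symbols for differences between genotypes and diets in these same livers, so their own levels and fold changes are given as a description, without a test. The livers came from male mice on a C57BL/6J background. Adn-Lpin1-/- mice lack lipin 1, an enzyme that dephosphorylates phosphatidic acid, in adipocytes, since their floxed Lpin1 alleles are cut by a Cre recombinase under the adiponectin promoter, and their WT littermates carry the floxed alleles without deletion in adipocytes. From 8 weeks of age the mice were fed a low-fat diet (LFD, 10% of kcal from fat) or a high-fat diet (HFD, 60%), for 5 weeks by the study's methods and 16 weeks by the sample labels, and they were fasted for 4 hours before the liver was taken. Each of the 4 groups, WT LFD, Adn-Lpin1-/- LFD, WT HFD and Adn-Lpin1-/- HFD, was sequenced as 5 single-mouse libraries, and the RNA of these mice was also pooled into 1 further library.

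The liver makes MUPs in large amounts and secretes them into the blood, from which they pass into the urine and carry pheromones. Their genes lie in a tandem cluster of near-identical copies, and adult males make more of them than females do. Pulses of growth hormone, which act through its receptor and the transcription factor STAT5B, together with androgens, glucocorticoids and thyroid hormone, set this male pattern in the liver. Mup20 encodes darcin, a male pheromone that draws females to urine marks. Obp2a encodes an odorant-binding lipocalin, which is also listed as Lcn13 and has been described as a secreted protein of mouse liver that bears on glucose and lipid metabolism.

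The deposited tables hold 48 Mup genes, 21 of them coding and 27 pseudogenes. On GRCm38, 47 of the 48 lie on chromosome 4 between 59956804 and 62150863, from Mup4 to Mup21. The 5 Mup members are all on the minus strand of that cluster. Mup9 (ENSMUSG00000078686) spans 60418046 to 60421952, Mup20 (ENSMUSG00000078672) 62050234 to 62054158, Mup3 (ENSMUSG00000066154) 62083476 to 62087342 and Mup21 (ENSMUSG00000066153) 62147932 to 62150863. Mup-ps20 (ENSMUSG00000084309), an unprocessed pseudogene, spans 62012412 to 62014857. Obp2a (ENSMUSG00000062061) lies on the plus strand of chromosome 2 from 25700043 to 25703326. RefSeq models Mup20 as a longer gene, from 62011337 to 62054143 on GRCm38.p6, and that span takes in Mup-ps20 on the same strand. The exons of that model were not compared with Mup-ps20. Whether reads on Mup-ps20 could stem from such a long Mup20 transcript was therefore not tested.

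The second exon of each member shows how far the copies have diverged, which decides how well their reads can be assigned. The sequences below, written 5′ to 3′ along the gene, come from the GENCODE M21 transcripts on GRCm38, with capitals at the bases that differ from Mup9 in a global alignment. Mup17 is shown as one of the most abundant close copies of Mup9.
Mup9, chr4:60421319-60421452, minus strand: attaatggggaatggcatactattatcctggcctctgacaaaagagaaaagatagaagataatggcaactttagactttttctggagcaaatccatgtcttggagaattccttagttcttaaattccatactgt
Mup17, chr4:61595193-61595326, minus strand: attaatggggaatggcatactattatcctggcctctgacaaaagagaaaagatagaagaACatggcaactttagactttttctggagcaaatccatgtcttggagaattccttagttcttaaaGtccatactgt
Mup20, chr4:62053480-62053613, minus strand: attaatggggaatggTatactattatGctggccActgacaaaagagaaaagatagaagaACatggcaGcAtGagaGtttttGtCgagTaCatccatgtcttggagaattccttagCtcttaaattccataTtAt
Mup3, chr4:62086800-62086933, minus strand: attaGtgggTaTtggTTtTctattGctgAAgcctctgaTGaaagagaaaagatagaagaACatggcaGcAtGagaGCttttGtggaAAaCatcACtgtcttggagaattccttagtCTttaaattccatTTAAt
Mup21, chr4:62150195-62150328, minus strand: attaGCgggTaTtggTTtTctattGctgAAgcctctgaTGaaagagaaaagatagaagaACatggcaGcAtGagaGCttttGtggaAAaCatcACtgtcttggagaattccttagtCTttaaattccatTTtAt
Mup-ps20, chr4:62014301-62014432, minus strand: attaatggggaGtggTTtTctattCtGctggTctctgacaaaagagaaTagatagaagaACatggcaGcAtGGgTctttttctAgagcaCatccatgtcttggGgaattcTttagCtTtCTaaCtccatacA
Obp2a, chr2:25700710-25700843, plus strand: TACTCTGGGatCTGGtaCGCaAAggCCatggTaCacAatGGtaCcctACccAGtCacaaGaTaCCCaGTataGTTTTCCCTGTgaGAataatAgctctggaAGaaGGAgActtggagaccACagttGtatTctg
In this exon, Mup19 was identical to Mup9 at all 134 bases and Mup17 differed at 3. Mup20 differed from Mup9 at 16 bases, Mup3 and Mup21 at 30 each, Mup-ps20 at 25 of its 132 bases and Obp2a at 62. Over the whole coding sequence, Mup9 was 99.8% identical to Mup19, and Mup3 was 94.7% identical to Mup21. The closest coding relative of Mup20 was Mup11 at 91.3%, whereas Obp2a was at most 51.5% identical to a Mup gene. The coding sequences predict 180 residues for Mup9, 181 for Mup20 and Mup21, 184 for Mup3 and 176 for Obp2a.

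Reads were counted by the authors only where they aligned to 1 place, so the part of a transcript that no other gene shares bears on what its count can hold. Each transcript was broken into all stretches of 75 bases, a length chosen here, since the read length is not given in the sources used here. No other gene held any of the stretches of Mup-ps20 (100% unique), and 94.6% of those of Mup3, 91.6% of Obp2a and 89.7% of Mup21 were unique. Of the Mup20 stretches 56.4% were unique, and 43.6% also occurred in the pseudogene Mup-ps19. In Mup9 24.9% were unique, while 47.7% also occurred in Mup19, 44.9% in Mup11 and 41.6% in Mup10. At this length, only the smaller part of the Mup9 transcript was unique. The share does not bound the counts, since Mup15 had no unique stretch of 75 bases and yet up to 51643 reads in a mouse.

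**Figure D1:**
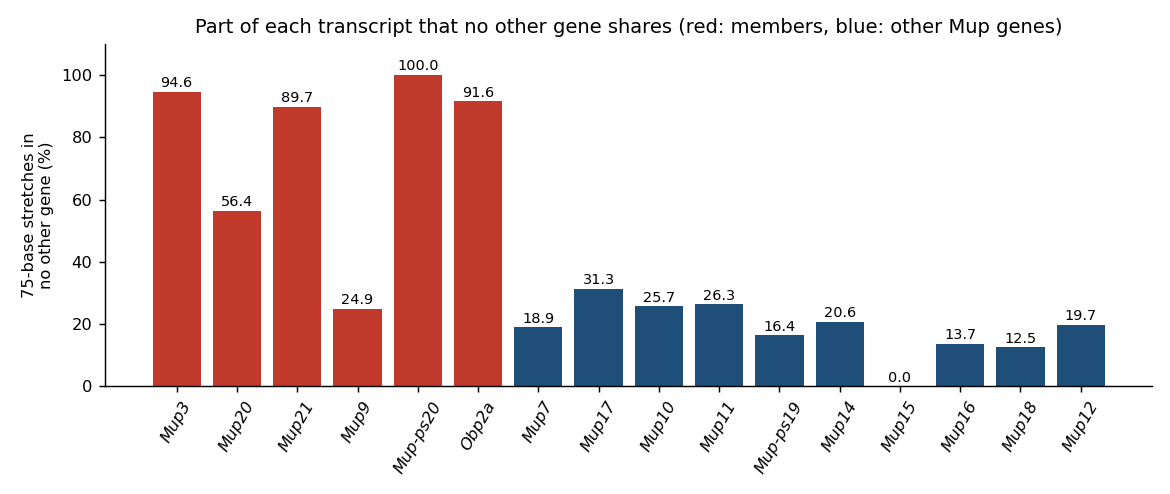
Share of the 75-base stretches of each transcript (%, y axis) found in no other gene, for the 6 members (red) and the 10 most abundant other Mup genes (blue). Mup-ps20 reached 100% and Mup3 94.6%, whereas Mup9 reached 24.9%. Mup15 had none, although up to 51643 reads were counted for it in a mouse.

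Total counts ranged from 36260187 to 81072794 per mouse, with medians on the LFD of 40777580 in WT and 52955319 in Adn-Lpin1-/-, and on the HFD of 57124312 in WT and 62306028 in Adn-Lpin1-/-. Each WT LFD library (at most 45999456 counts) was shallower than each of the other 15 (at least 51095146), and the part of depth in differences against WT LFD was not tested. Levels are given as CPM, the counts divided by the library's total and put on a common scale, with library sizes adjusted by edgeR's TMM method, and per kilobase of exon (RPKM) where genes are compared with each other. All 6 members passed the requirement on low counts (over 1 CPM in 4 or more of 20 mice), which left 13052 genes. On the library totals used for that requirement, before TMM scaling, Obp2a exceeded 1 CPM in 10 libraries, all 5 of Adn-Lpin1-/- HFD among them and none of WT LFD. Hepatocyte RNA was abundant in every library, since Alb lay between 55426 and 87538 CPM in each mouse. Markers of other liver cell types are given below. Lpin1 itself, which is deleted in adipocytes and not in hepatocytes, lay between 120 and 1193 CPM and does not check the genotype labels of liver samples.

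On the LFD, all Mup genes together took 1.74% ± 0.296 (SD, n = 5) of the counts in WT and 1.47% ± 0.159 in Adn-Lpin1-/-. On the HFD they took 1.33% ± 0.155 in WT and 1.4% ± 0.486 in Adn-Lpin1-/-. Mup3 alone held 57.0% ± 3.19 of these Mup counts in WT LFD and 62.5% ± 9.98 in Adn-Lpin1-/- HFD. Per length in WT LFD, Mup3 was the highest member at 9733 ± 1548 RPKM (SD, n = 5), followed by Mup20 at 3962 ± 622, Mup21 at 671 ± 172, Mup-ps20 at 29.7 ± 20.5, Mup9 at 4.93 ± 0.960 and Obp2a at 0.998 ± 0.419. In each neighbouring pair of this order the 5 values of the higher gene lay above the 5 of the lower. RPKM uses the full exon length, although 24.9% of the Mup9 stretches and 100% of those of Mup-ps20 were unique at 75 bases. The part of this in the order of Mup-ps20 and Mup9 was not tested. In Adn-Lpin1-/- HFD the first 3 places were the same, with 7516 ± 1561 RPKM for Mup3, but Mup9 at 43.8 ± 62.3 and Obp2a at 17.6 ± 13.2 then stood above Mup-ps20 at 3.41 ± 1.74 RPKM. The mice of Mup9 overlapped those of both other genes in that group, with a range of 2.54 to 154 RPKM.

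**Figure D2:**
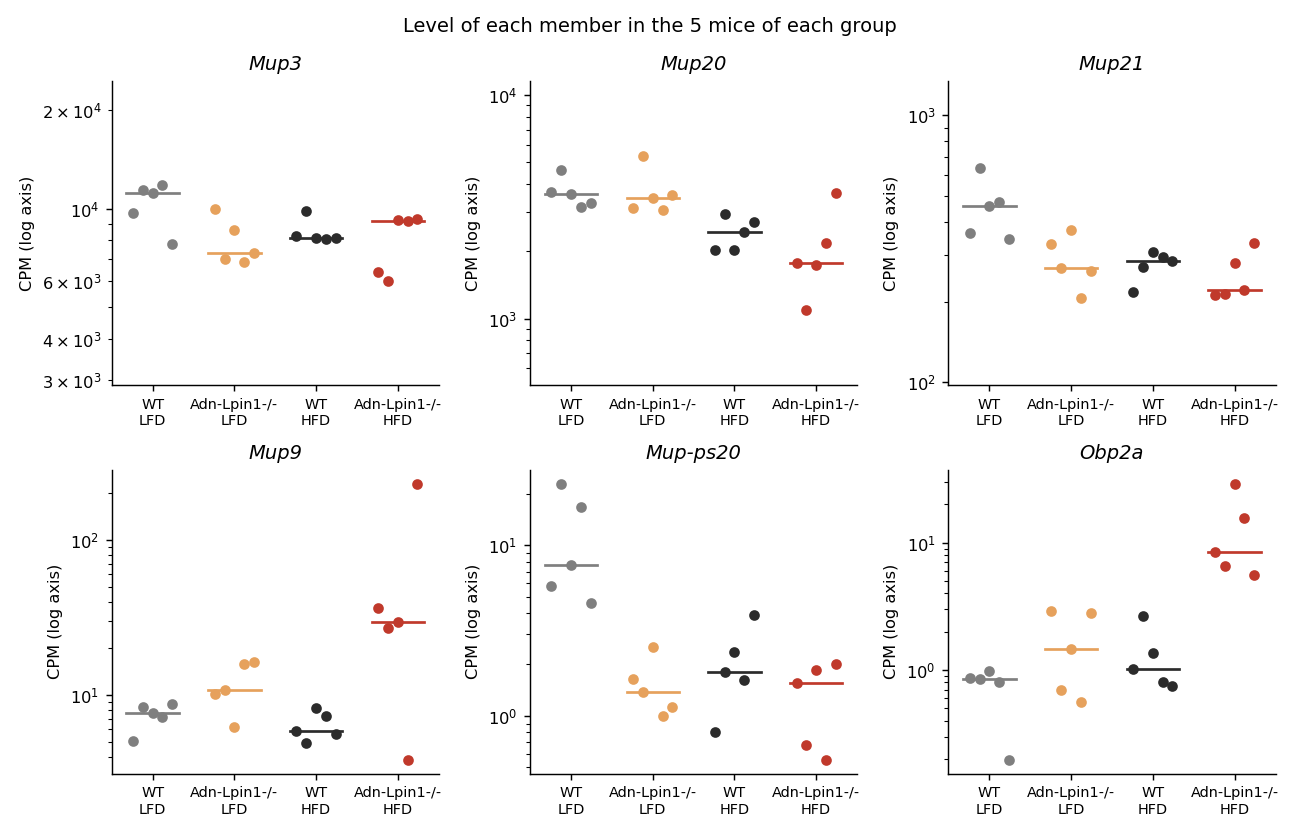
CPM of each member (log axis) in the 5 mice of each of the 4 groups, mice in order of their number from left to right, with a line at the median. Mup-ps20 is highest in WT LFD and Obp2a in Adn-Lpin1-/- HFD without overlap, Mup9 in Adn-Lpin1-/- HFD runs from 3.81 to 231 CPM, and Mup3 differs little between the groups.

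Obp2a, the odorant-binding lipocalin, was low in 3 of the groups and higher in Adn-Lpin1-/- HFD. In WT LFD its level was 0.874, 0.853, 0.981, 0.806 and 0.197 CPM in mice 1 to 5. The mice of WT HFD had 1.02, 2.67, 1.36, 0.807 and 0.752 CPM. Diet therefore left the WT groups overlapping, with 3 of 5 WT HFD mice above every WT LFD mouse. Adn-Lpin1-/- LFD livers had 2.89, 0.693, 1.46, 0.557 and 2.78 CPM, and those of Adn-Lpin1-/- HFD 8.47, 6.58, 29.2, 15.6 and 5.54 CPM. Each of the 5 Adn-Lpin1-/- HFD mice stood above all 15 mice of the other groups, and mouse 3 was the highest. On the HFD the genotypes differed by a log2 fold change of 3.30 (standard error 0.53), which is 9.87-fold, and on the LFD by 1.19 (0.57), with overlap. HFD against LFD gave 2.96 (0.52) in Adn-Lpin1-/- and 0.84 (0.57) in WT. The genotype effect differed between the diets by 2.12 (0.77) on the log2 scale. These levels rest on 442 to 2492 reads in Adn-Lpin1-/- HFD but on 8 to 38 reads in WT LFD, so the WT LFD values are the least precise.

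Mup9, one of the near-identical central copies of the cluster, was also highest in Adn-Lpin1-/- HFD, but 1 mouse of that group decided the size. WT LFD mice had 5.06, 8.35, 7.64, 7.15 and 8.74 CPM, and WT HFD mice 5.86, 4.87, 8.23, 7.28 and 5.61 CPM. The WT groups thus covered nearly the same range, with a log2 fold change by diet of -0.21 (standard error 0.63). In Adn-Lpin1-/- LFD the values were 10.2, 10.7, 6.22, 15.9 and 16.3 CPM, of which 4 lay above every WT LFD mouse. In Adn-Lpin1-/- HFD they were 36.5, 27.0, 29.7, 3.81 and 231 CPM. Here 4 of 5 mice were above all mice of the other groups, mouse 4 was below all of them, and mouse 5 alone reached 231. The log2 fold change by genotype was 3.37 (0.66) on the HFD and 0.68 (0.63) on the LFD, and that by diet in Adn-Lpin1-/- was 2.47 (0.63). Without mouse 5 of Adn-Lpin1-/- HFD, the genotype difference on the HFD was 1.93 and the diet difference in Adn-Lpin1-/- 1.03 on the log2 scale. Without mouse 4 they were 3.66 and 2.77. The mean of the group was 65.7 ± 93.4 CPM (SD, n = 5) with all mice and 24.3 without mouse 5, and the pooled library of the same mice had 61.7 CPM.

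Mup-ps20 had the opposite distribution and was highest in WT LFD. In that group it reached 5.73, 23, 7.70, 16.8 and 4.60 CPM. Adn-Lpin1-/- LFD mice had 1.65, 1.39, 2.51, 0.998 and 1.13 CPM, all below every WT LFD mouse. The levels in WT HFD were 0.801, 1.82, 2.37, 1.61 and 3.91 CPM, also all below WT LFD, and those in Adn-Lpin1-/- HFD 1.55, 0.670, 1.86, 0.551 and 2.01 CPM. The 3 groups other than WT LFD overlapped with each other. Adn-Lpin1-/- on the LFD was lower than WT by a log2 fold change of -2.91 (standard error 0.48), a 7.5-fold lower level, and HFD in WT was lower than LFD by -2.46 (0.47). The genotype difference on the HFD was -0.65 (0.47), and the diet difference in Adn-Lpin1-/- was -0.20 (0.48). The genotype effect differed between the diets by 2.26 (0.66). Within WT LFD, mice 2 and 4 held most of the signal, and the coefficient of variation was 69.1%.

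Mup20 (darcin), separated from Mup-ps20 by the pseudogene Mup-ps21, did not share that distribution by genotype on the LFD. WT LFD livers had 3689, 4625, 3630, 3149 and 3289 CPM, and Adn-Lpin1-/- LFD livers 3136, 5343, 3463, 3052 and 3581 CPM. These groups lay over each other, and the log2 fold change was 0.01 (standard error 0.23). WT HFD livers had 2030, 2927, 2021, 2444 and 2710 CPM, and Adn-Lpin1-/- HFD livers 1770, 1094, 1733, 2171 and 3636 CPM. All WT HFD mice were below all WT LFD mice, and 4 of 5 Adn-Lpin1-/- HFD mice were below all Adn-Lpin1-/- LFD mice, mouse 5 being the exception. HFD against LFD gave -0.60 (0.23) in WT and -0.84 (0.23) in Adn-Lpin1-/-. Genotype on the HFD gave -0.22 (0.23).

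Mup21, at the end of the cluster, was highest in WT LFD at 361, 636, 457, 472 and 345 CPM. Adn-Lpin1-/- LFD mice had 331, 269, 373, 206 and 260 CPM, of which 4 lay below every WT LFD mouse. The mice on the HFD covered 218 to 308 CPM in WT and 212 to 331 CPM in Adn-Lpin1-/-. All WT HFD mice lay below all WT LFD mice, with a log2 fold change of -0.73 (standard error 0.17). Genotype gave -0.66 (0.17) on the LFD but -0.13 (0.17) on the HFD. Diet in Adn-Lpin1-/- gave -0.19 (0.17). Mup21 and Mup-ps20 were thus both highest in WT LFD, with differences of unequal size.

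Mup3, the most abundant member, varied least. The WT LFD mice had 9724, 11428, 11183, 11838 and 7804 CPM, and the Adn-Lpin1-/- LFD mice 9972, 7003, 8586, 6877 and 7327 CPM. On the HFD, WT mice had 8251, 9846, 8116, 8063 and 8152 CPM, and Adn-Lpin1-/- mice 6421, 5998, 9226, 9160 and 9331 CPM. No pair of groups compared was free of overlap. The genotype difference was -0.39 (standard error 0.14) on the LFD but -0.08 (0.14) on the HFD. The diet difference was -0.29 (0.14) in WT and 0.01 (0.14) in Adn-Lpin1-/-. The sign of the genotype difference on the HFD changed without Adn-Lpin1-/- HFD mouse 2, and that of diet in Adn-Lpin1-/- without any of 6 single mice.

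By genotype on the LFD, the 5 and 5 mice did not overlap for 1 of the 6 members, Mup-ps20, against 10.1% of the 13052 genes. On the HFD this held for Obp2a alone, against 11.4% of genes. By diet it held for Mup20, Mup21 and Mup-ps20 in WT, where 3.73% of genes did not overlap, and for Obp2a in Adn-Lpin1-/-, against 4.06%. Since the members were picked on these contrasts, nothing is read from these counts. The comparisons share groups, WT LFD for example entering both genotype on the LFD and diet in WT.

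Across the 20 mice, the genes outside the members that most resembled each one were ranked by Pearson's r of log2 CPM, as a description over mice that share 4 groups. Mup20 was closest to Mup-ps19 (r = 0.91, and 0.91 within groups), with which it shares sequence, then to Mup-ps22 (0.88) and Smad9 (0.85). Mup21 was closest to Gm16551 (0.89), Mup8 (0.87) and Ugt2b1 (0.87), a male-biased glucuronosyltransferase. Mup-ps20 was closest to Myo6 (0.88), Ergic2 (0.86) and again Ugt2b1 (0.85). Mup9 was closest to Mup18 (0.84 over all mice and 0.90 within groups), then Rogdi (0.79) and Ift122 (0.79). Mup3 was closest to Dusp11 (0.89), Ppp4r3a (0.88) and Ubn2 (0.87). Obp2a was closest to Mif4gd (0.88), Dus1l (0.86) and Bscl2 (0.84), the last at 0.34 within groups. Among the members, Mup21 and Mup-ps20 had r = 0.92 (0.81 within groups), and Mup9 and Obp2a 0.43 over all mice and -0.34 within groups, n = 20 mice in each case.

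**Figure D3:**
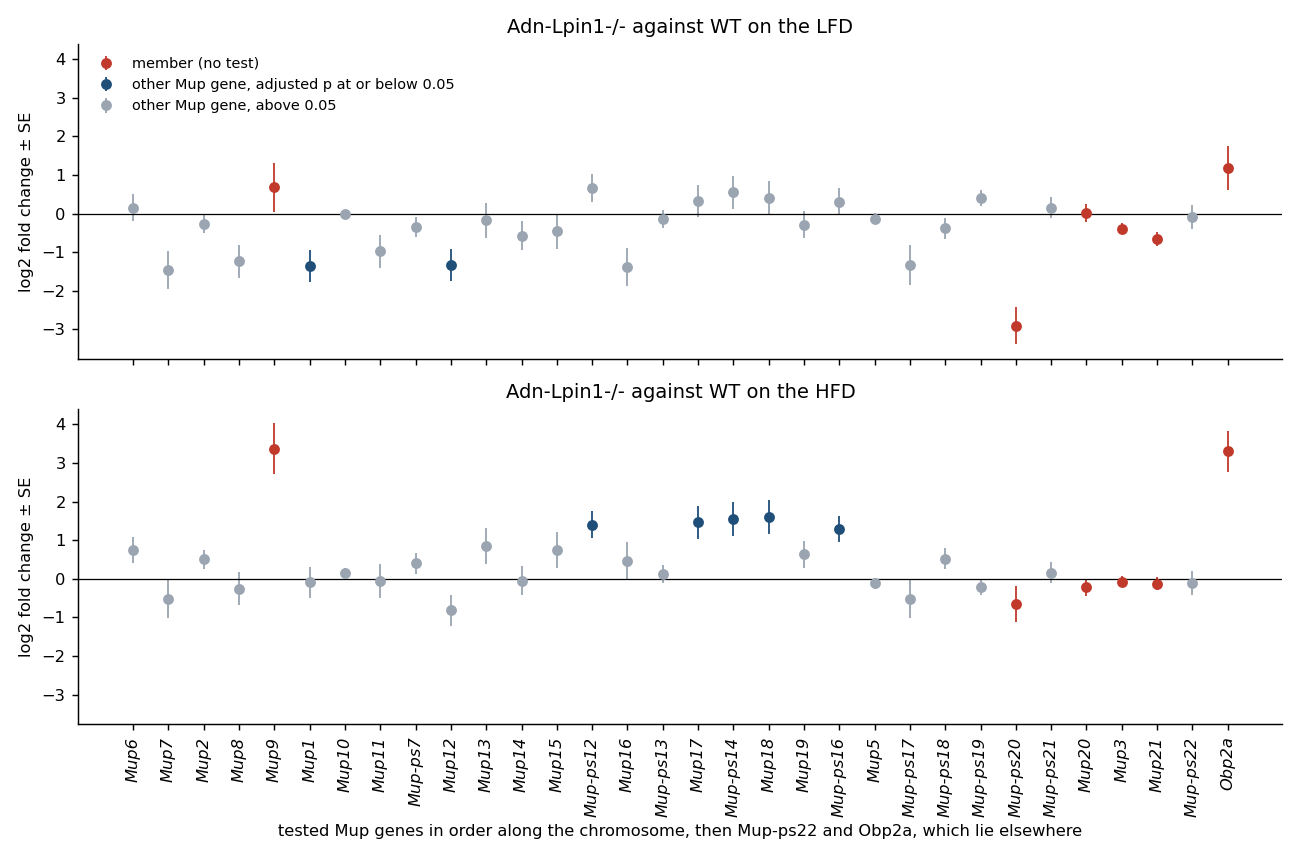
Log2 fold change of Adn-Lpin1-/- against WT (y axis, points, with standard error as bars) on the LFD (top) and HFD (bottom) for the 31 Mup genes tested, in order along chromosome 4, with Mup-ps22 and Obp2a at the right. Members (red) carry no test. Of the other 26 Mup genes, Mup1 and Mup12 passed the test (dark blue) as lower on the LFD, and Mup-ps12, Mup17, Mup-ps14, Mup18 and Mup-ps16 as higher on the HFD.

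The other Mup genes show whether the cluster moved as a whole. Of the 43 Mup genes that are no members, 26 passed the requirement on low counts, all of them with a mean of at least 1 CPM in some group, and 4 had no read in any of the 20 mice. The most abundant were Mup7, with 1632 ± 671 CPM (SD, n = 5) in WT LFD, Mup17, with 669 ± 705 CPM in Adn-Lpin1-/- HFD, and Mup10, with 475 ± 97.7 CPM in Adn-Lpin1-/- HFD. On the LFD, 2 of the 26 were called as lower than in WT in the Adn-Lpin1-/- livers and none as higher, where 14.4% of all genes were called. A gene was called at an adjusted p of 0.05 or below in the quasi-likelihood test of edgeR, with p adjusted by Benjamini and Hochberg over all 13052 genes. The median log2 fold change of the 26 was -0.22, against 0.0065 for all genes. Mup1 fell from 12.4 ± 5.17 CPM in WT to 4.87 ± 2.35 in Adn-Lpin1-/- (log2 fold change -1.35, standard error 0.42, edgeR adjusted p = 0.0367). Mup12 fell from 24.1 ± 9.25 to 9.54 ± 4.96 CPM (-1.33, 0.41, edgeR adjusted p = 0.0338). Mup7 showed a like size, -1.46 (0.50), without passing (edgeR adjusted p = 0.0545). Mup-ps19, named after its values were seen, lay higher in Adn-Lpin1-/- without overlap (0.40, 0.21), where 10.1% of all genes did not overlap. It was not called (edgeR adjusted p = 0.211). The mice of both genotypes overlapped for Mup1 and Mup12, and none of the 26 was called without WT LFD mouse 2 or 3, or without Adn-Lpin1-/- LFD mouse 2, 4 or 5. Without mouse 5 of Adn-Lpin1-/- HFD, which shares the estimate of spread, 7 were called on the LFD, all lower in Adn-Lpin1-/-.

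On the HFD, 5 of the 26 other Mup genes were higher in Adn-Lpin1-/- and none was lower, against 18.6% of all genes called. The median was 0.28 against 0.0023 for all genes. Mup18 had 43.1 ± 48.4 CPM in Adn-Lpin1-/- and 14.2 ± 2.43 in WT (log2 fold change 1.60, standard error 0.44, edgeR adjusted p = 0.0160). Mup17 had 669 ± 705 against 243 ± 74.5 CPM (1.46, 0.43, edgeR adjusted p = 0.0231). Both calls rested on mouse 5 of Adn-Lpin1-/- HFD, without which the values were 0.61 for Mup18 (edgeR adjusted p = 0.0596) and 0.56 for Mup17 (edgeR adjusted p = 0.126). The call of Mup17 was also lost without WT HFD mouse 1 or mouse 5. The pseudogenes Mup-ps14 (1.56, 0.44, edgeR adjusted p = 0.0192), Mup-ps12 (1.4, 0.36, edgeR adjusted p = 0.0115) and Mup-ps16 (1.29, 0.35, edgeR adjusted p = 0.0155) were higher as well, at means of 3.23 to 8.03 CPM in Adn-Lpin1-/- HFD. These 3 stayed called without mouse 5 (Mup-ps14 was not called without Adn-Lpin1-/- HFD mouse 1), and 4 others were then called as lower, Mup12 (-1.22), Mup11 (-1.01), Mup8 (-1.0) and Mup-ps19 (-0.49). The direction of the family on the HFD therefore differed between its genes and changed with 1 mouse.

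By diet, edgeR called 0 of the other Mup genes in WT and 1 in Adn-Lpin1-/-. In WT, edgeR called none of the 26, 8 had an unadjusted p under 0.05, DESeq2 called 0 and voom with the pools 7, and the background was 1.10% of all genes called. The median was -0.64 against 0.0028 for all genes, so most of these genes lay lower on the HFD without passing the test. The WT mice of both diets did not overlap for Mup2, Mup6, Mup13, Mup19, Mup-ps18, Mup-ps21 and Mup-ps22, all lower on the HFD. These genes were named after their values were seen, and 3.73% of all genes did not overlap in that comparison. In Adn-Lpin1-/-, where 2.46% of all genes were called, Mup-ps19, the pseudogene that shares sequence with Mup20, fell from 273 ± 59.6 to 151 ± 67.4 CPM (-0.85, standard error 0.21, edgeR adjusted p = 0.0343), a call that was lost without Adn-Lpin1-/- LFD mouse 2, 3 or 4 or Adn-Lpin1-/- HFD mouse 1, 2 or 3. No Mup gene outside the members was called by edgeR for a genotype effect that differed by diet, with 4 of 26 at an unadjusted p under 0.05. Across all 13052 genes, edgeR called 0 for that difference, with 938 at an unadjusted p under 0.05.

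The sum over the other Mup genes does not depend on how the counted reads were divided among them, although reads from shared stretches are missing from it. On the LFD it was 3738 ± 1119 CPM (SD, n = 5) in WT and 2453 ± 393 in Adn-Lpin1-/-. On the HFD it was 2598 ± 596 CPM in WT and 2883 ± 2388 in Adn-Lpin1-/-. The median of the last group, 1676 CPM, was the lowest of the 4, since mouse 5 held 7065 CPM and the other mice 1397 to 2668. The difference of mean log2 sums by genotype was -0.57 on the LFD (two-sided exact permutation test, p = 0.0317, adjusted p = 0.127 over 4 comparisons) and -0.12 on the HFD (exact permutation p = 0.841, adjusted p = 0.937). By diet it was -0.50 in WT (exact permutation p = 0.0794, adjusted p = 0.159) and -0.05 in Adn-Lpin1-/- (exact permutation p = 0.937, adjusted p = 0.937). None passed after adjustment, and the smallest p that 5 mice against 5 allow is 0.00794.

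**Figure D4:**
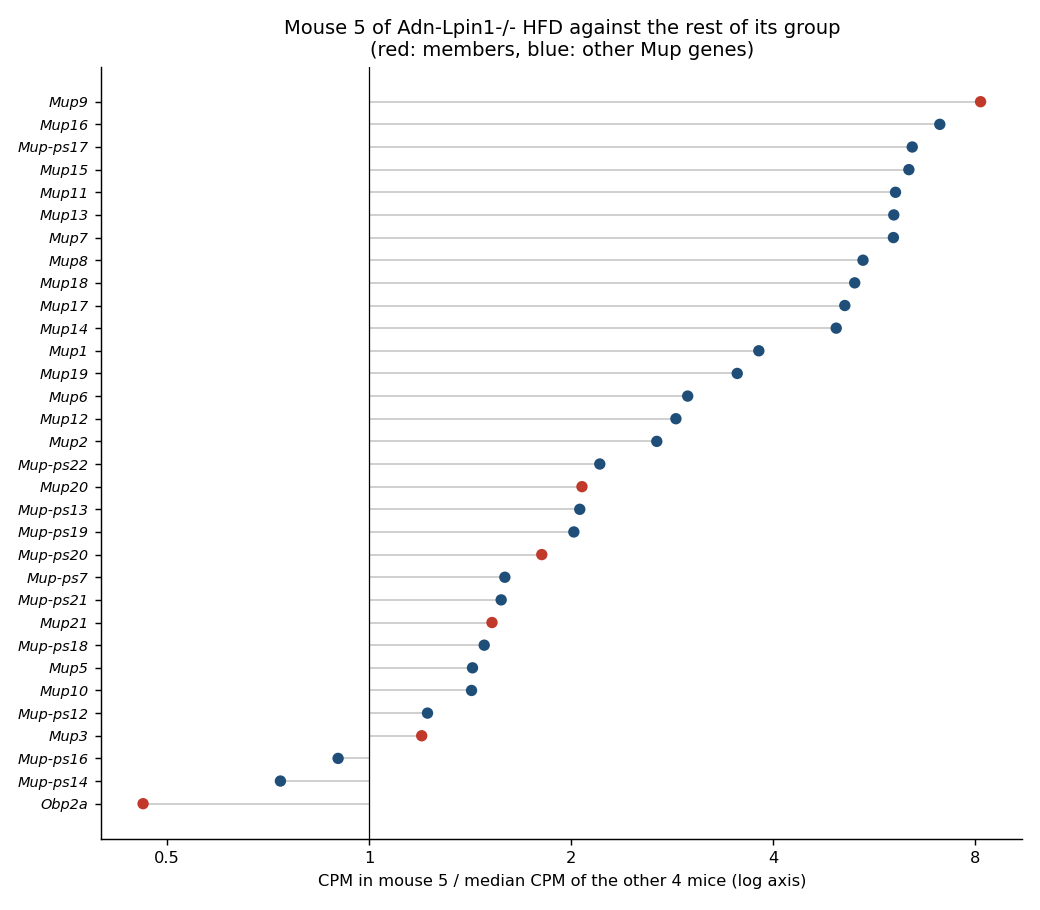
CPM in mouse 5 of Adn-Lpin1-/- HFD divided by the median of the other 4 mice of its group (x axis, log scale) for the 31 tested Mup genes and Obp2a (y axis), members in red. Ratios run from 8.15 for Mup9 to 1.20 for Mup3, with Mup-ps16, Mup-ps14 and Obp2a below 1.

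Mouse 5 of Adn-Lpin1-/- HFD was the highest of its group for 27 of the 31 tested Mup genes. Its level was 8.15 times the median of the other 4 mice for Mup9, 7.09 times for Mup16 and 6.05 times for Mup7, but 2.08 times for Mup20, 1.52 times for Mup21 and 1.20 times for Mup3. For Obp2a the same mouse was the lowest of its group, at 0.46 times the median. Mouse 4, whose Mup9 was the lowest of all 20 mice, was the lowest of the group for 15 of the 31. In WT LFD, mouse 2 was the highest of its group for 21 of the 31. The libraries of mice 5 and 4 of Adn-Lpin1-/- HFD had 75418975 and 58924654 counts, and the part of depth in these differences was not tested.

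Genes known to be higher in male than in female liver, which share hormonal control with the Mup genes, fell in Adn-Lpin1-/- livers for 5 of 15 genes (LFD) and for 6 (HFD), where 14.4% and 18.6% of all genes were called in either direction. All 15 of the list passed the requirement on low counts. This list and the gene lists that follow were chosen with earlier results of these data known, so their shares called are a description. On the LFD none rose, and the median was -0.73 over the 15. Susd4 fell from 44.3 ± 4.20 to 19.6 ± 4.78 CPM without overlap (log2 fold change -1.17, standard error 0.16, edgeR adjusted p = 0.000112). Hsd3b5, a male-specific steroid dehydrogenase, fell from 268 ± 69.0 to 107 ± 44.1 CPM (-1.32, 0.35, edgeR adjusted p = 0.0162), and Moxd1 also fell (-3.45, 1.08, edgeR adjusted p = 0.0378), at a mean of 5.83 ± 8.07 CPM in WT. Without WT LFD mouse 2 the value of Moxd1 was -2.09, and its call was lost in 6 of the 20 fits without 1 mouse. Ugt2b1 and Slco1a1, a bile salt and steroid transporter, were the others. On the HFD 1 rose, and the median was -0.45. Susd4 (-0.80, 0.16, edgeR adjusted p = 0.00275), Hsd3b5 (-1.04, 0.35, edgeR adjusted p = 0.0422), Moxd1, Ugt2b1 and Slco1a1 were again lower. Moxd1 lay near the floor there, at 0 to 5.54 CPM in WT and 0.0234 to 0.0743 CPM in Adn-Lpin1-/-, with overlap. It was not called by voom with the pools (limma voom adjusted p = 0.324). Serpina1e, an antitrypsin gene, fell too (-1.94, 0.61, edgeR adjusted p = 0.0339), and Cyp2d9, a male-specific steroid hydroxylase, rose from 1462 ± 183 to 1813 ± 58.3 CPM (0.31, 0.08, edgeR adjusted p = 0.0160). Without WT HFD mouse 5 the values of Moxd1 and Serpina1e on the HFD were -2.07 and -1.34 and neither was called. The 7 calls on the HFD became 3 without WT HFD mouse 5 or Adn-Lpin1-/- HFD mouse 1 or 2, and 4 without Adn-Lpin1-/- HFD mouse 3.

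By diet, 3 genes of the male list fell in at least 1 genotype. The fatty acid hydroxylase gene Cyp4a12b fell from 207 ± 22.4 to 74.2 ± 22.6 CPM in WT (-1.48, standard error 0.17, edgeR adjusted p = 0.000465) and from 228 ± 38.3 to 69.3 ± 10.5 CPM in Adn-Lpin1-/- (-1.72, 0.17, edgeR adjusted p = 4.43e-05), without overlap in either genotype. Ugt2b1, also lower by genotype, fell in WT (-0.67, 0.16, edgeR adjusted p = 0.0402), a call lost in 9 of the 20 fits without 1 mouse, and Cyp4a12a in Adn-Lpin1-/- (-1.11, 0.24, edgeR adjusted p = 0.0202, lost without Adn-Lpin1-/- HFD mouse 1). These were 2 of 15 in each genotype, with medians of -0.38 in WT and -0.37 in Adn-Lpin1-/-. Of all genes, diet called 1.10% in WT and 2.46% in Adn-Lpin1-/-.

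Of 18 genes known to be higher in female liver, 11 passed the requirement on low counts. None was called by edgeR for genotype, where 1 had an unadjusted p under 0.05 on the LFD and 4 on the HFD. DESeq2 called 0 (LFD) and 3 (HFD) of them, and voom with the pools 4 and 5. By diet, 3 were called as higher on the HFD in Adn-Lpin1-/-, the cytochrome P450 genes Cyp2b9, Cyp2b13 and Cyp2a4, where 2.46% of all genes were called. Cyp2b9 rose from 2.05 ± 2.48 to 63.1 ± 50.2 CPM without overlap (4.94, standard error 1.26, edgeR adjusted p = 0.0406). Cyp2a4 rose from 12.6 ± 3.61 to 20.8 ± 1.87 CPM (0.72, 0.17, edgeR adjusted p = 0.0271). Cyp2b13 lay at or below 0.196 CPM on the LFD and between 0.483 and 3.47 CPM on the HFD, and since it passed the requirement on low counts only through HFD mice, its call is no support for a change. The call of Cyp2b9 was lost in 10 of the 20 fits without 1 mouse, and that of Cyp2a4 in 5. Cyp2b13 was tested in 16 of these fits. In WT none was called by edgeR, with 3 at an unadjusted p under 0.05, 1 called by DESeq2 and 3 by voom with the pools.

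Among 26 tested genes of the hormone pathways and regulators that act on Mup genes, 4 fell by genotype on each diet by edgeR and none rose, a share near that of all genes called (14.4% on the LFD, 18.6% on the HFD). Ghr, the growth hormone receptor, fell from 590 ± 31.7 to 438 ± 21.1 CPM on the LFD without overlap (-0.43, standard error 0.07, edgeR adjusted p = 0.000436) and also fell on the HFD (-0.23, 0.07, edgeR adjusted p = 0.0239). Nr3c1, the glucocorticoid receptor, fell on the LFD (-0.46, 0.07, edgeR adjusted p = 0.00048) and on the HFD (-0.37, 0.07, edgeR adjusted p = 0.0025), without overlap on either diet. Cebpa, a transcription factor of hepatocytes, fell on both (-0.31, 0.08), with edgeR adjusted p = 0.0110 on the LFD and 0.00959 on the HFD. Igfals, whose product carries insulin-like growth factors in the blood, fell on the LFD (-0.68, 0.14, edgeR adjusted p = 0.00367). Igf1, the main target of growth hormone in liver, fell on the HFD (-0.53, 0.13, edgeR adjusted p = 0.00772). Stat5b rose by diet in Adn-Lpin1-/- from 51.5 ± 3.78 to 63.9 ± 2.67 CPM (0.31, 0.07, edgeR adjusted p = 0.0197), but was not called without Adn-Lpin1-/- LFD mouse 3 or Adn-Lpin1-/- HFD mouse 1. It was the 1 gene of the 26 called there, against 2.46% of all genes. In WT, diet called none of the 26 by edgeR, with 3 at an unadjusted p under 0.05, none by DESeq2 and 4 by voom with the pools.

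Of 27 other lipocalins listed, 22 were in the tables and 9 passed the requirement on low counts. By genotype, edgeR called 3 of the 9 on the LFD and 1 on the HFD, against 14.4% and 18.6% of all genes. By diet it called 0 in WT and 1 in Adn-Lpin1-/-, against 1.10% and 2.46% of all genes. Apom, which carries sphingosine-1-phosphate on lipoproteins, fell from 170 ± 19.6 to 108 ± 10.8 CPM on the LFD (-0.65, standard error 0.11, edgeR adjusted p = 0.000644) and from 165 ± 22.9 to 90.5 ± 13.9 CPM on the HFD (-0.86, 0.11, edgeR adjusted p = 4.95e-05), without overlap on either diet. Rbp4, the retinol carrier of plasma (-0.27, 0.08, edgeR adjusted p = 0.0254), and C8g, a subunit of complement component 8 (-0.34, 0.09, edgeR adjusted p = 0.0133), fell on the LFD. Orm1, an acute-phase glycoprotein, fell by diet in Adn-Lpin1-/- (-0.59, 0.15, edgeR adjusted p = 0.0431), a call that was lost in 11 of the 20 fits without 1 mouse, those without any single Adn-Lpin1-/- LFD mouse among them. By edgeR no lipocalin of this list was called as higher in the 4 comparisons. By genotype on the HFD, however, Orm3, named after its values were seen, had 2.87 ± 1.29 CPM in WT and 6.01 ± 1.26 in Adn-Lpin1-/- without overlap (1.06, 0.38, edgeR adjusted p = 0.0557), and DESeq2 called 2 lipocalins as higher and voom with the pools 3. In WT diet called none by edgeR, with 1 at an unadjusted p under 0.05, none by DESeq2 and 1 by voom with the pools.

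**Figure D5:**
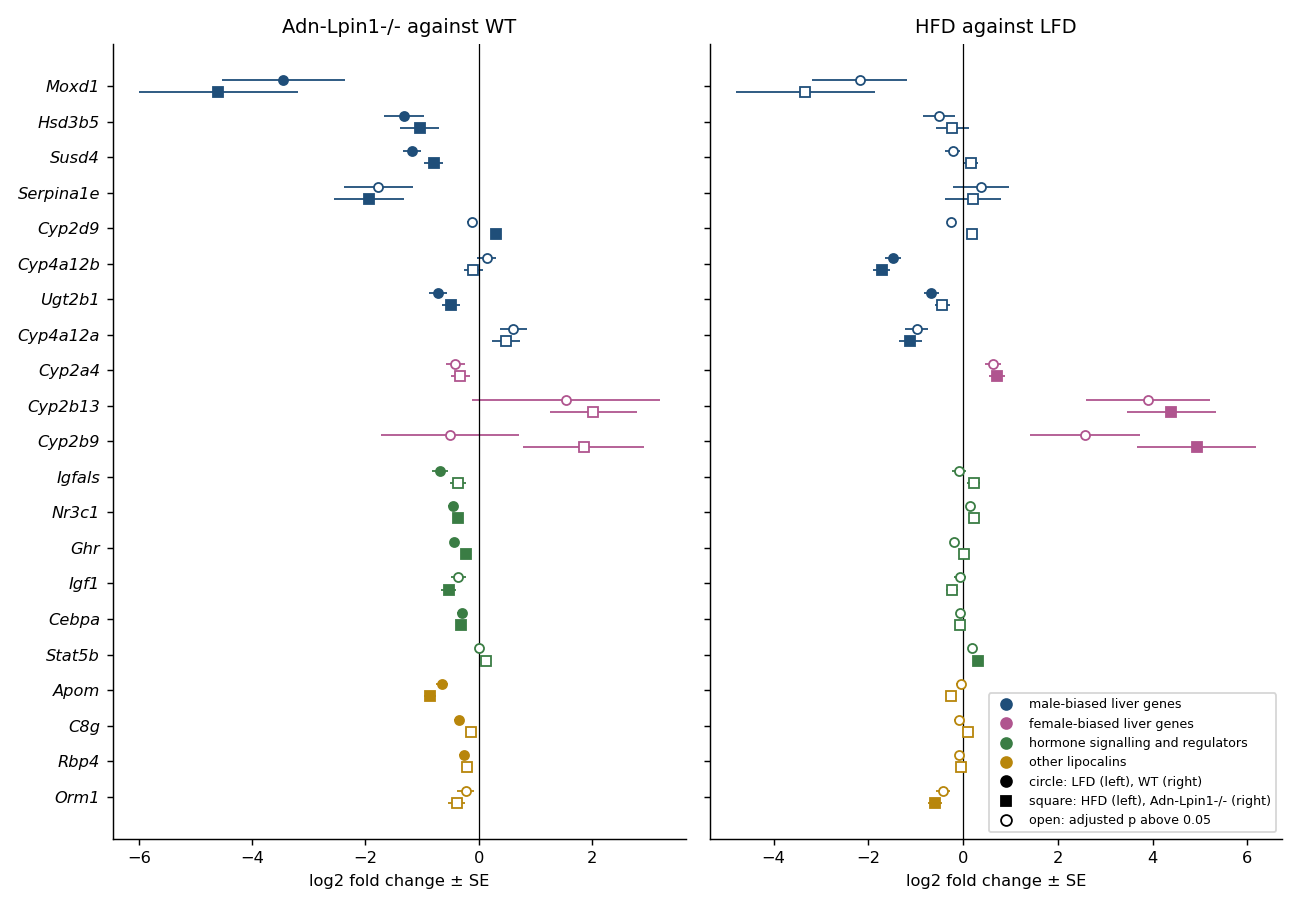
Log2 fold change (x axis, with standard error as bars) of the named genes of 4 lists (colours), by genotype (left, circles LFD, squares HFD) and by diet (right, circles WT, squares Adn-Lpin1-/-). Filled symbols passed the test at an adjusted p of 0.05 or below. By genotype the filled symbols lie below 0 for all but Cyp2d9 on the HFD, and by diet they lie below 0 for Cyp4a12a, Cyp4a12b, Ugt2b1 and Orm1 and above 0 for 3 female-biased genes and Stat5b.

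In bulk liver, fewer hepatocytes and less RNA per hepatocyte cannot be told apart. Of all 13052 genes, edgeR called 14.4% by genotype in LFD livers and 18.6% in HFD livers, in either direction. By the same test 1 of 7 hepatocyte markers (14.3%) was lower on the LFD, a share near that of all genes. On the HFD 4 of these 7 markers were lower, among them Alb and Apoa1. On the LFD their summed level was 106159 to 116397 CPM in WT and 79745 to 104204 in Adn-Lpin1-/-. On the HFD it was 99935 to 125024 CPM in WT and 82884 to 109763 in Adn-Lpin1-/-. Markers of stellate cells rose by genotype in 5 (LFD) and 4 (HFD) of 7, those of endothelial cells in 2 and 3 of 5, and those of Kupffer cells and macrophages in 0 and 4 of 6. The stellate sum ranged from 66.8 to 136 CPM in WT and 151 to 360 in Adn-Lpin1-/- on the LFD, and from 118 to 170 CPM in WT and 140 to 361 in Adn-Lpin1-/- on the HFD. Of the 4 adipocyte markers Cfd was tested, and it rose by genotype on both diets. Adipoq, Plin1 and Lep, which define adipocytes, stayed at or below 0.0468, 0.0517 and 0.0479 CPM in Adn-Lpin1-/- HFD, whereas Adipoq reached 4.32 CPM in 1 WT LFD mouse and 0.745 CPM in 1 WT HFD mouse. No marker of cholangiocytes (5 tested) or mesothelium (2 tested) was called by edgeR for genotype, although 3 and 2 of them had an unadjusted p under 0.05 on the LFD and none on the HFD, DESeq2 called 1 of each on the LFD, and voom with the pools called 4 and 1 on the LFD and 1 and 0 on the HFD. Cela1, the 1 acinar marker tested, fell on the LFD, and no kidney tubule marker was tested. By diet in WT, where Mup20, Mup21 and Mup-ps20 did not overlap, edgeR called none of the 7 hepatocyte markers, none had an unadjusted p under 0.05, DESeq2 called 0 and voom with the pools 1. The part of these cell types in the levels of the members was not tested.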

How the data were processed

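Liver RNA of 20 single mice, 5 per group, and of 4 pools (the RNA of the 5 mice of a group) was sequenced by the authors from poly-A selected RNA on an Illumina HiSeq. Whether reads kept their strand, and the read length, are not given in the sources used here. By the study's methods, reads were aligned with STAR 2.5.1a to GRCm38 (Ensembl release 76) and assigned with featureCounts 1.4.6-p5 where they aligned to a single place and a single gene. The deposited tables give, per gene, raw counts, CPM and RPKM as the authors computed them, and the counts were used here. Reads from identical stretches of Mup paralogs are thus not counted, so levels of Mup9 and its close copies are understated and uncertain, and near-identical copies or overlapping genes cannot be told apart fully.

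The counts of the single mice were fitted with edgeR 4.0.16 (TMM scaling, quasi-likelihood test, R 4.3.3) over all 4 groups at once, after 355 ribosomal RNA genes and genes without more than 1 CPM in at least 4 of 20 libraries were left out. P-values were adjusted by Benjamini-Hochberg over the remaining 13052 genes, and genes at or below 0.05 were called. Log2 CPM used a prior count of 2. Each standard error of a log2 fold change was derived from the test. It is the absolute log2 fold change divided by the square root of the quasi-likelihood F statistic. The edgeR test was tried on simulated data for genotype on the LFD, and the other tests across genes were not. Pools entered no test other than limma 3.58.1 voom with quality weights, an alternative. DESeq2 1.42.0, DESeq2 size factors, scaling without Mup genes, no filter on low counts, the replicate number as a block and leaving out each mouse were the others. The sum over Mup genes used an exact permutation test.

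The members and the gene lists were chosen with earlier results of these data known. The members therefore carry no test, and the shares called in the lists are a description and no independent support. Of each list and comparison, the 3 largest rises and falls among called genes were named, as were, for each member, the 3 genes with the highest Pearson r. Other called genes that are named (Mup-ps12, Mup-ps16, Ugt2b1 and Slco1a1 by genotype, Cebpa on the LFD and Ghr on the HFD), those called without 1 mouse, and markers were chosen after their values were seen. Transcripts and gene models came from GENCODE M21 (GRCm38) and RefSeq (GRCm38.p6), and 40254 of 41388 gene identifiers (97.3%) matched a symbol.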

Additional observations from a re-analysis of the deposited data

Results flagged for a closer look

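In 5 of 28 sets of 5 mice (each member, and the sum over the other Mup genes, in each group), 1 mouse lay far from the rest of its group by Dixon's ratio at the 95% level, which chance alone gives in about 1 in 20 sets. Mup9 in mouse 5 of Adn-Lpin1-/- HFD had 231 CPM, against 3.81 to 36.5 in the rest of the group. The sum over the other Mup genes in the same mouse was 7065 CPM, against 1397 to 2668. Mup20 in mouse 2 of Adn-Lpin1-/- LFD had 5343 CPM, against 3052 to 3581. Mup3 in mouse 2 of WT HFD had 9846 CPM, against 8063 to 8251. Obp2a in mouse 5 of WT LFD had 0.197 CPM, from 8 reads, against 0.806 to 0.981.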

How the results depend on the processing

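The log2 fold changes of the members were recomputed as 144 values under other settings and 480 values in fits without 1 mouse. None was counted as moved by more than the spread between mice. Without Adn-Lpin1-/- HFD mouse 5, Mup9 nonetheless went from 3.37 to 1.93 by genotype on the HFD and from 2.47 to 1.03 by diet in Adn-Lpin1-/-. Signs changed for Mup3 by genotype on the HFD and by diet in Adn-Lpin1-/-, and for Mup20 by genotype on the LFD. The only other change of sign was that of Mup-ps20 by diet in Adn-Lpin1-/- (0.06 without Adn-Lpin1-/- LFD mouse 3). Of 32 calls of named genes, 14 were kept in every fit without 1 mouse, 32 by DESeq2 and 31 by voom with the pools. The pools repeat the RNA of the same mice, so the voom fit counts them as independent libraries that they are not. The counts below are in the order genotype on the LFD, genotype on the HFD, diet in WT and diet in Adn-Lpin1-/-. With voom and the pools, 9, 8, 7 and 4 other Mup genes were called, 7, 8, 1 and 4 other lipocalins, 11, 7, 6 and 6 male-biased genes, 4, 5, 3 and 4 female-biased genes, and 8, 8, 4 and 6 hormone pathway genes and regulators. DESeq2 called 4 other Mup genes by genotype on the LFD and 2 by diet in Adn-Lpin1-/-, 5 other lipocalins by genotype on the HFD, and 3 female-biased genes by genotype on the HFD and 1 by diet in WT. Scaling without Mup genes called 2 other lipocalins by genotype on the HFD. The causes were not tested. Leaving out single mice gave 0 to 7, 4 to 7, 0 to 0 and 0 to 2 other Mup genes, 2 to 4, 1 to 5, 0 to 0 and 0 to 1 other lipocalins, 4 to 9, 3 to 9, 1 to 3 and 1 to 3 male-biased genes, 0 to 1, 0 to 3, 0 to 2 and 0 to 4 female-biased genes, and 4 to 6, 3 to 6, 0 to 1 and 0 to 1 hormone pathway genes and regulators.

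For the sum over the other Mup genes, the difference on the log2 scale turned to 0.0106 by genotype on the HFD and 0.0029 by diet in Adn-Lpin1-/- without TMM scaling. Without single mice it ranged from -0.72 to -0.43 by genotype on the LFD and from -0.51 to 0.0708 by genotype on the HFD. By diet it ranged from -0.65 to -0.36 in WT and from -0.45 to 0.1378 in Adn-Lpin1-/-. The difference by genotype on the LFD passed the adjusted threshold without WT LFD mouse 5 (-0.72).

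Mice with the same replicate number did not deviate together (correlation of deviations from the group means from -0.42 to 0.28 over pairs of groups), so the numbers only name mice. With the replicate number as a block, 0, 3, 0 and 1 other Mup genes were called, 3, 2, 0 and 0 other lipocalins, 4, 3, 1 and 2 male-biased genes, 0, 0, 0 and 2 female-biased genes, and 4, 3, 0 and 1 hormone pathway genes and regulators, and 21 of the 32 named calls were kept. Depth limits Obp2a in WT LFD, which rests on 8 to 38 reads.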

Other observations

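The 4 pooled libraries, which entered no comparison between groups other than the alternative with voom, lay inside the range of their 5 mice for all 24 pairs of member and group, at 0.590 to 1.23 times the mean of the mice.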
